A study of Mus musculus with 12 samples.

Results

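Genes for angiogenic and vasoactive factors were read out of a table of RNA levels in EMT6 cells, a mouse breast cancer line. The set comprised 10 genes taken by symbol: the vascular endothelial growth factor genes VEGFA, VEGFB and VEGFC, the placental growth factor gene PGF, the angiopoietin-1 gene ANGPT1, the angiopoietin-like gene ANGPTL4, the neuropilin genes NRP1 and NRP2, and the vasoactive peptide genes ADM and EDN1. All 10 symbols were found once among the 60683 rows of the table. PGF stayed under 1 TPM (a transcript level scaled to gene length and to the library's sum) in every library and is given as not measured. ANGPTL4 reached 1 TPM in a single library and was not tested. The other 8 were among the 14389 rows that reached 1 TPM in 3 or more libraries, the rows that were tested.

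The study asked how depletion of ISG20, an interferon-induced RNA exonuclease, changes gene expression with and without low oxygen. A control subclone with a non-targeting short hairpin RNA (shNTC, genotype wild type in the labels) and a subclone with a short hairpin against ISG20 (shISG20) were each kept at 20% O2 or at 1% O2 for 48 hours. Each of the 4 groups held 3 libraries, 12 in all. For the third shISG20 library at 20% O2 the label reads 484 hours, and it was kept with its group. Each arm was represented by a single subclone in the labels, so what the hairpin did and how the subclones differ otherwise cannot be told apart. The titles call the libraries biological replicates without stating whether these were separate cultures, and p-values measure the spread of these samples.

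Vascular endothelial growth factors and angiopoietins are secreted by tumour cells and act on receptor tyrosine kinases of endothelial cells, where they start, guide or stabilise vessel growth. Neuropilins are co-receptors that bind VEGF proteins as well as class 3 semaphorins, and tumour cells carry them too. Adrenomedullin, the product of ADM, widens vessels, and endothelin-1, the product of EDN1, constricts them. VEGFA, ADM and ANGPTL4 are textbook targets of the hypoxia-inducible factors (HIF), which bind hypoxia response elements in DNA when oxygen is low.

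The cells are mouse, but the rows of the table are human genes and the build named by the submitters is GRCh38, so only reads close enough to a human gene were counted. Levels are therefore compared within a gene and not between genes, and a gene at 0 may be one whose mouse reads did not align. Whole reads could be recovered from the TPM values and came to 3173991 to 5201799 per library. Read numbers given below are sums of these over the 3 libraries of a group, and intervals made from them cover counting error only. ISG20 itself averaged 2.46 TPM (shNTC) against 0.225 TPM (shISG20) at 20% O2, and 8.28 against 0.566 TPM at 1% O2, so the targeted gene was lower in both shISG20 groups. All 10 endothelial markers examined were under 1 TPM in every library, and PECAM1, CDH5, KDR, TIE1, CLDN5, EMCN and ERG were at 0. Of the carcinoma line markers, VIM, KRT8, KRT18 and KRT19 were measured, EPCAM was under 1 TPM in every library and CDH1 and CDH2 were at 0. In bulk RNA, fewer cells of a type and less RNA per cell cannot be told apart.

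At 1% O2 the 8 tested genes parted into those that rose, those that fell and EDN1, which did not pass in either subclone. In shNTC cells 7 of the 8 passed (limma, adjusted p under 0.05): VEGFA, VEGFB and ADM were higher at 1% O2, and VEGFC, ANGPT1, NRP1 and NRP2 were lower. Of all tested rows 50.9% passed in that comparison, 12.8% higher and 38.1% lower; the count of 7 stands against that background. In shISG20 cells 7 of 8 passed as well, with VEGFA, VEGFB, ADM and NRP2 higher and VEGFC, ANGPT1 and NRP1 lower. The background there was 56.8%, with 14.0% higher and 42.8% lower. The median log2 difference of all tested rows was -0.28 in shNTC and -0.35 in shISG20 cells, against -0.05 for the 8 genes in each. ANGPT1 and VEGFC entered the test only through the libraries at 20% O2, where they are high. Their falls, and counts and medians over the 8, are therefore a description. Differences are of log2(TPM + 1), a scale that understates the change of genes with low TPM.

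**Figure D1:**
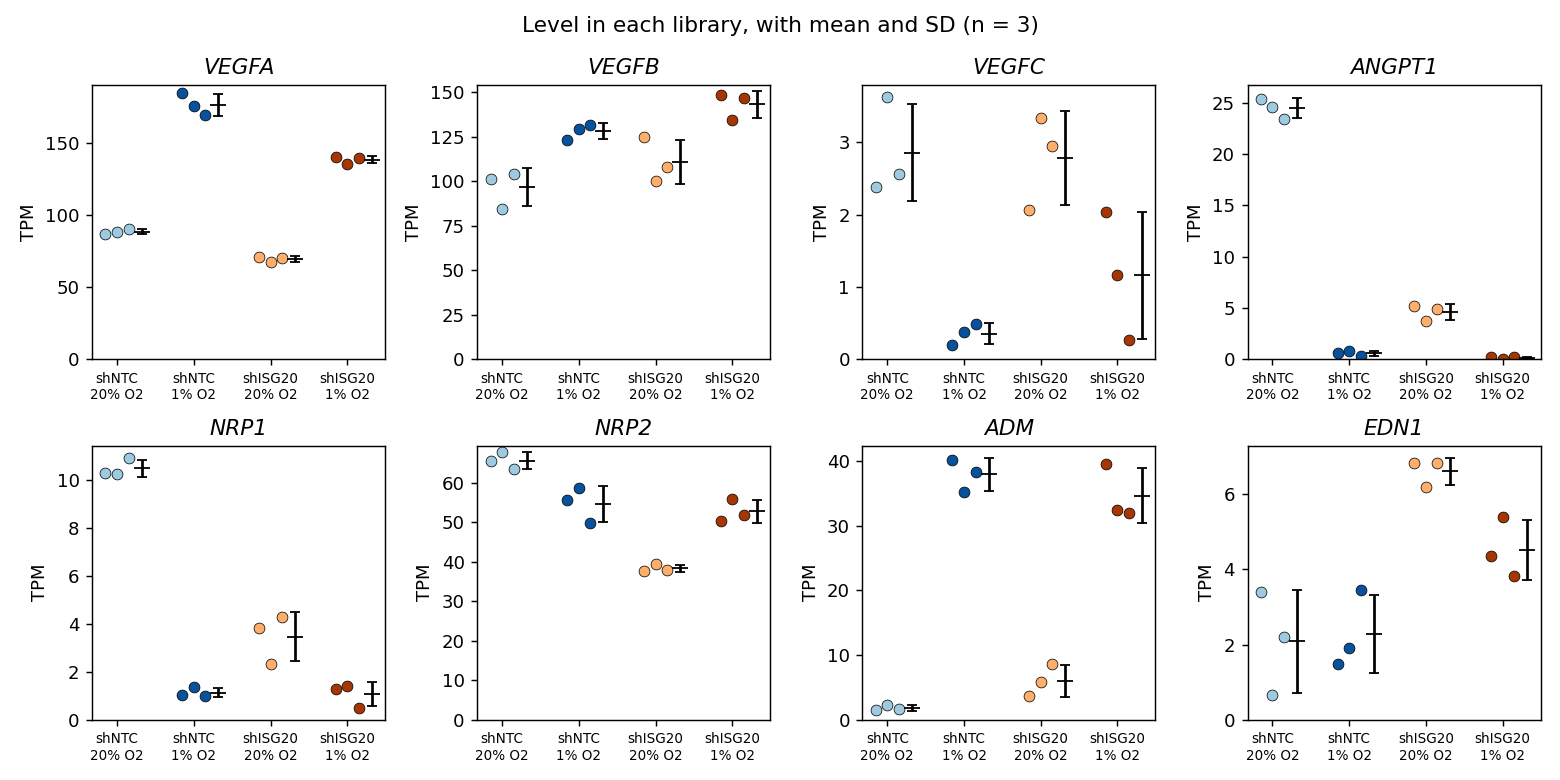
Level in TPM of the 8 tested genes in each of the 12 libraries, with 1 panel per gene and 1 colour per group. Bars show the mean and the SD of 3 libraries. VEGFA and ADM lie higher at 1% O2 in both subclones, while ANGPT1 and NRP1 lie near the axis at 1% O2 and, at 20% O2, lower in shISG20 than in shNTC cells.

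VEGFA, whose product drives endothelial growth and permeability, was 86.6, 88.2 and 90.0 TPM in the shNTC libraries at 20% O2 and 184, 175 and 169 TPM at 1% O2. In shISG20 cells the libraries read 70.6, 66.9 and 69.9 TPM at 20% O2 and 140, 135 and 139 TPM at 1% O2. The 4 groups did not overlap anywhere, and their order was shISG20 at 20% O2, shNTC at 20% O2, shISG20 at 1% O2 and shNTC at 1% O2. VEGFA rose 1.99-fold with 1% O2 in shNTC cells (log2 difference 0.99, SE 0.047, adjusted p = 3.27e-08) and 2.00-fold in shISG20 cells (log2 difference 0.99, SE 0.047, adjusted p = 2.38e-08). The 2 hypoxia effects differed by -0.00018 on the log2 scale, with a 95% interval of -0.15 to 0.15 (limma interaction, adjusted p = 0.999).

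VEGFA was also lower in the knockdown subclone, by a similar proportion at either oxygen level. VEGFA was 1.28-fold lower in shISG20 than in shNTC cells at 20% O2 (log2 difference -0.35, SE 0.047, limma, adjusted p = 0.00104) and 1.28-fold lower at 1% O2 (log2 difference -0.35, SE 0.047, adjusted p = 0.00114). The group mean at 1% O2 was 176 ± 7.54 TPM (SD, n = 3) in shNTC and 138 ± 2.49 TPM in shISG20 cells, from 14256 and 9456 reads. On the log2(TPM + 1) scale used here, VEGFA was the only gene of the set that passed in both knockdown comparisons. These use different libraries of the same subclones and share an estimate of the spread. Under other treatments of the values given below, ANGPT1 passed in both as well (3 alternatives), as did EDN1 (1 alternative).

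VEGFB, which encodes a ligand known mainly for effects on metabolism and cell survival, moved less. Its shNTC libraries held 101, 84.6 and 104 TPM at 20% O2 and 123, 130 and 132 TPM at 1% O2. The shISG20 libraries held 125, 100 and 108 TPM at 20% O2 and 148, 135 and 147 TPM at 1% O2. Within each subclone every library at 1% O2 lay above every library at 20% O2, while the subclones overlapped at 20% O2. VEGFB rose by a log2 difference of 0.41 in shNTC cells (SE 0.094, limma, adjusted p = 0.00376) and of 0.37 in shISG20 cells (adjusted p = 0.00557). The knockdown differences were 0.20 at 20% O2 (adjusted p = 0.228) and 0.16 at 1% O2 (adjusted p = 0.305), opposite in sign to those of VEGFA and not past the threshold.

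VEGFC, a lymphangiogenic member of the family, ran the other way with oxygen but rested on few reads. It met the filter only through the libraries at 20% O2, where it is high, so its fall is a description. The shNTC libraries showed 2.39, 3.62 and 2.56 TPM at 20% O2 (32 reads) and 0.193, 0.373 and 0.489 TPM at 1% O2 (5 reads). The shISG20 libraries showed 2.06, 3.34 and 2.95 TPM at 20% O2 (35 reads) and 2.04, 1.16 and 0.270 TPM at 1% O2 (15 reads). Both subclones were lower at 1% O2 without overlap, narrowly so in shISG20 cells. VEGFC fell in shNTC cells (log2 difference -1.51, SE 0.30, limma, adjusted p = 0.00141), which by depth-scaled reads was 7.60-fold with a 95% counting interval of 2.94 to 24.98.

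The fall of VEGFC in shISG20 cells had a log2 difference of -0.88 (limma, adjusted p = 0.0250) and did not hold under several settings. It was -0.48 with quantile normalization (adjusted p = 0.203), -0.63 with median-of-ratios size factors (adjusted p = 0.113) and -0.88 with only these groups in the fit (adjusted p = 0.0743). It was also lost without shISG20 replicate 3 at 1% O2 (-0.55, adjusted p = 0.0914) and without shISG20 replicate 2 (-0.78, adjusted p = 0.0822) or replicate 3 (-0.85, adjusted p = 0.0653) at 20% O2. Neither knockdown comparison passed (-0.03, adjusted p = 0.969 at 20% O2 and 0.59, adjusted p = 0.229 at 1% O2), although the latter reached 0.93 (adjusted p = 0.0462) without shISG20 replicate 3 at 1% O2. PGF, another VEGF family ligand, was above 0 only in shNTC replicate 3 at 1% O2 (0.110 TPM).

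**Figure D2:**
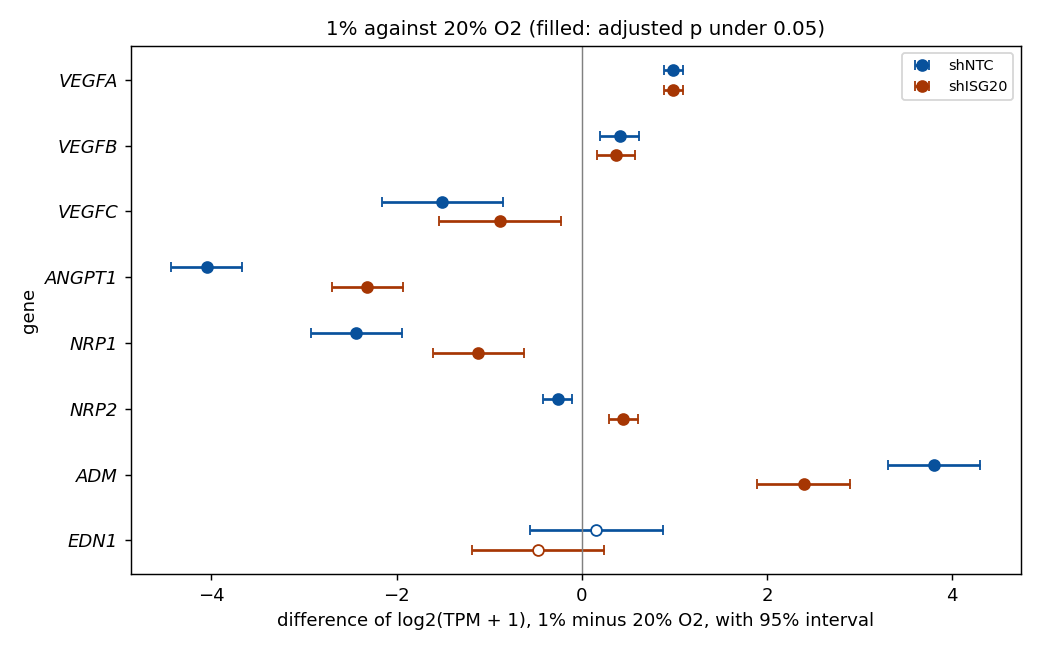
Difference of log2(TPM + 1) between 1% and 20% O2 for each tested gene, in shNTC (blue) and shISG20 cells (brown). Bars are 95% intervals from limma and filled points passed at an adjusted p under 0.05. The paired points of VEGFA coincide at 0.99, those of ANGPT1, NRP1 and ADM stand apart, and those of NRP2 lie on opposite sides of 0.

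ANGPT1 encodes angiopoietin-1, the agonist ligand of the TEK receptor that stabilises vessels. Its level in the shNTC libraries was 25.4, 24.6 and 23.4 TPM at 20% O2 and 0.567, 0.821 and 0.269 TPM at 1% O2. In shISG20 cells it was 5.19, 3.74 and 4.87 TPM at 20% O2 and 0.166, 0 and 0.198 TPM at 1% O2. No groups overlapped, and the order from highest to lowest was shNTC and shISG20 at 20% O2, then shNTC and shISG20 at 1% O2. ANGPT1 fell by 4.05 on the log2 scale with 1% O2 in shNTC cells (SE 0.17, limma, adjusted p = 1.49e-08) and by 2.32 in shISG20 cells (SE 0.17, adjusted p = 6.79e-07).

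On reads scaled to the recovered depth, ANGPT1 was 38.4-fold lower at 1% O2 in shNTC cells (744 against 23 reads, 95% counting interval 25.4 to 61.0). In shISG20 cells it was 33.7-fold lower (148 against 4 reads, interval 12.9 to 125). The counting intervals of these folds overlap, while the difference between the hypoxia effects on the log2(TPM + 1) scale was 1.74 (SE 0.24, limma interaction, adjusted p = 0.00324). That interaction was 0.79 with a pseudocount of 0.1 (adjusted p = 0.514) and 0.32 with voom, a weighted fit of the recovered reads (adjusted p = 0.829).

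Knockdown lowered ANGPT1 at 20% O2 by 5.32-fold, from 24.5 ± 0.995 to 4.602 ± 0.762 TPM (SD, n = 3 each; log2 difference -2.19, SE 0.17, limma, adjusted p = 3.65e-05). At 1% O2 the difference was -0.46 (adjusted p = 0.110), with group means of 0.552 and 0.121 TPM. By depth-scaled reads (23 against 4) that was 4.78-fold lower, with a counting interval of 1.63 to 19.03. This comparison passed under 3 alternatives, at -1.61 with a pseudocount of 0.1 (adjusted p = 0.0350), at -0.79 on mouse-matched rows (adjusted p = 0.0218) and at -2.13 with voom (adjusted p = 0.0140).

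ANGPTL4, which encodes a secreted inhibitor of lipoprotein lipase and a textbook HIF target, was barely detected. Its shNTC libraries read 1.40, 0.547 and 0.301 TPM at 20% O2 (8 reads) and 0.204, 0 and 0.259 TPM at 1% O2 (2 reads). The shISG20 libraries read 0, 0.392 and 0 TPM at 20% O2 (2 reads) and 0 in all 3 libraries at 1% O2. A rise with 1% O2 was not detectable for ANGPTL4 at this depth and with this alignment.

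The neuropilins NRP1 and NRP2, related co-receptors, differed from each other in their response to oxygen. NRP1 was 10.3, 10.3 and 10.9 TPM in the shNTC libraries at 20% O2 and 1.05, 1.35 and 1.00 TPM at 1% O2. In shISG20 cells it was 3.81, 2.31 and 4.29 TPM at 20% O2 and 1.29, 1.43 and 0.490 TPM at 1% O2. The groups at 20% O2 were separate from each other and from both groups at 1% O2, and the groups at 1% O2 overlapped. NRP1 fell 9.25-fold with 1% O2 in shNTC cells (log2 difference -2.43, SE 0.22, limma, adjusted p = 4.84e-06) and 3.25-fold in shISG20 cells (log2 difference -1.12, SE 0.22, adjusted p = 0.00128).

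Knockdown of ISG20 lowered NRP1 3.02-fold at 20% O2 (log2 difference -1.39, SE 0.22, limma, adjusted p = 0.00281). At 1% O2 the difference was -0.07 with a 95% interval of -0.57 to 0.42 (adjusted p = 0.876). The interaction was 1.32 (SE 0.32, adjusted p = 0.0341), and the smaller fall in shISG20 cells went with a lower start at 20% O2. It kept its sign under all 20 alternatives (1.11 to 1.56) but missed the threshold in 13 of them. Among these were a pseudocount of 0.1 (adjusted p = 0.128), no filter on low rows (adjusted p = 0.0531) and the omission of any shNTC library or of shISG20 replicate 1 or 2 at either oxygen level (adjusted p of 0.0514 to 0.0736).

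NRP2 was 65.6, 67.9 and 63.4 TPM in the shNTC libraries at 20% O2 and 55.5, 58.8 and 49.8 TPM at 1% O2. In the shISG20 libraries it was 37.6, 39.4 and 38.0 TPM at 20% O2 and 50.3, 56.0 and 51.9 TPM at 1% O2. The shISG20 libraries at 20% O2 were the lowest of the 4 groups and the shNTC libraries at 20% O2 the highest, with the groups at 1% O2 between them and overlapping. Knockdown at 20% O2 lowered NRP2 1.71-fold (log2 difference -0.76, SE 0.071, limma, adjusted p = 0.000106). At 1% O2 the difference was -0.05 (95% interval -0.21 to 0.11, adjusted p = 0.710).

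With 1% O2, NRP2 rose in shISG20 cells (log2 difference 0.45, SE 0.071, limma, adjusted p = 0.000253). In shNTC cells its log2 difference was -0.26 (adjusted p = 0.00985), close to the median of all rows at -0.28, and the call did not hold under other scalings. It was -0.02 with quantile normalization (adjusted p = 0.835), -0.11 with voom (adjusted p = 0.0681) and turned to 0.075 with median-of-ratios size factors (adjusted p = 0.336). The interaction of 0.71 (SE 0.10, adjusted p = 0.00334) passed under all 20 alternatives, with a range of 0.64 to 0.79.

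ADM, the adrenomedullin gene, had the largest hypoxia rise of the 8 tested genes in both subclones. The shNTC libraries held 1.49, 2.33 and 1.60 TPM at 20% O2 and 40.2, 35.2 and 38.3 TPM at 1% O2. The shISG20 libraries held 3.65, 5.84 and 8.63 TPM at 20% O2 and 39.5, 32.5 and 31.9 TPM at 1% O2. The 20% groups were separate, with every shISG20 library above every shNTC library, and the 1% groups overlapped far above both. ADM rose 20.96-fold in shNTC cells (log2 difference 3.80, SE 0.23, limma, adjusted p = 1.64e-07) and 5.73-fold in shISG20 cells (log2 difference 2.40, SE 0.23, adjusted p = 4.41e-06).

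The gap between subclones in ADM lay at 20% O2. Knockdown raised it 3.34-fold there (18 against 65 reads; log2 difference 1.28, SE 0.23, limma, adjusted p = 0.00470), whereas at 1% O2 the difference was -0.13 (95% interval -0.63 to 0.37, adjusted p = 0.762). The 20% call was lost when only these groups entered the fit (adjusted p = 0.0529). The highest of the shISG20 values at 20% O2, 8.63 TPM, came from the library labelled 484 hours, and the difference was 1.02 without it. The interaction of -1.41 (SE 0.32, adjusted p = 0.0266) kept its sign in all 20 alternatives (-1.76 to -1.15) but missed the threshold in 8. Among these were the omission of any shNTC library at 1% O2, of shNTC replicate 1 or 3 at 20% O2, of shISG20 replicate 2 at 20% O2 or of shISG20 replicate 3 at 1% O2 (adjusted p of 0.0503 to 0.0608).

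EDN1, the endothelin-1 gene, differed between the subclones at 20% O2, and neither of its oxygen comparisons passed. Its shNTC libraries read 3.41, 0.665 and 2.20 TPM at 20% O2 and 1.49, 1.92 and 3.46 TPM at 1% O2. The shISG20 libraries read 6.82, 6.20 and 6.83 TPM at 20% O2 and 4.37, 5.39 and 3.82 TPM at 1% O2. Every shISG20 library was above every shNTC library, and the shNTC groups overlapped. Knockdown raised EDN1 3.17-fold at 20% O2 (18 against 62 reads; log2 difference 1.41, SE 0.32, limma, adjusted p = 0.0183), and at 1% O2 the difference was 0.78 (95% interval 0.066 to 1.501, adjusted p = 0.145).

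The EDN1 call at 20% O2 was lost when only these groups entered the fit (adjusted p = 0.0673) and without shISG20 replicate 1 (1.39, adjusted p = 0.0559) or replicate 3 (1.39, adjusted p = 0.0560). At 1% O2 EDN1 passed with voom (1.11, adjusted p = 0.0397). The hypoxia differences were 0.15 in shNTC cells (adjusted p = 0.724) and -0.47 in shISG20 cells (adjusted p = 0.241), and the latter passed when only these groups were fitted (adjusted p = 0.0374).

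Set side by side, knockdown at 20% O2 lowered VEGFA, ANGPT1, NRP1 and NRP2 and raised ADM and EDN1, so 6 of the 8 genes passed. Of all tested rows 11.6% passed in that comparison, 5.05% higher and 6.55% lower. At 1% O2 only VEGFA passed, where 13.9% of rows did, 4.25% higher and 9.66% lower. The interaction passed for ANGPT1, NRP1 and NRP2 with positive sign and for ADM with negative sign, 4 of 8 against a background of 6.93% of rows (2.62% positive and 4.31% negative). Of these only NRP2 passed under all 20 alternatives, while ANGPT1 missed the threshold in 2, ADM in 8 and NRP1 in 13. ANGPT1 also entered the test only through the libraries at 20% O2, so the count is a description. The hypoxia, knockdown and interaction comparisons share libraries, so their calls are not separate evidence.

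**Figure D3:**
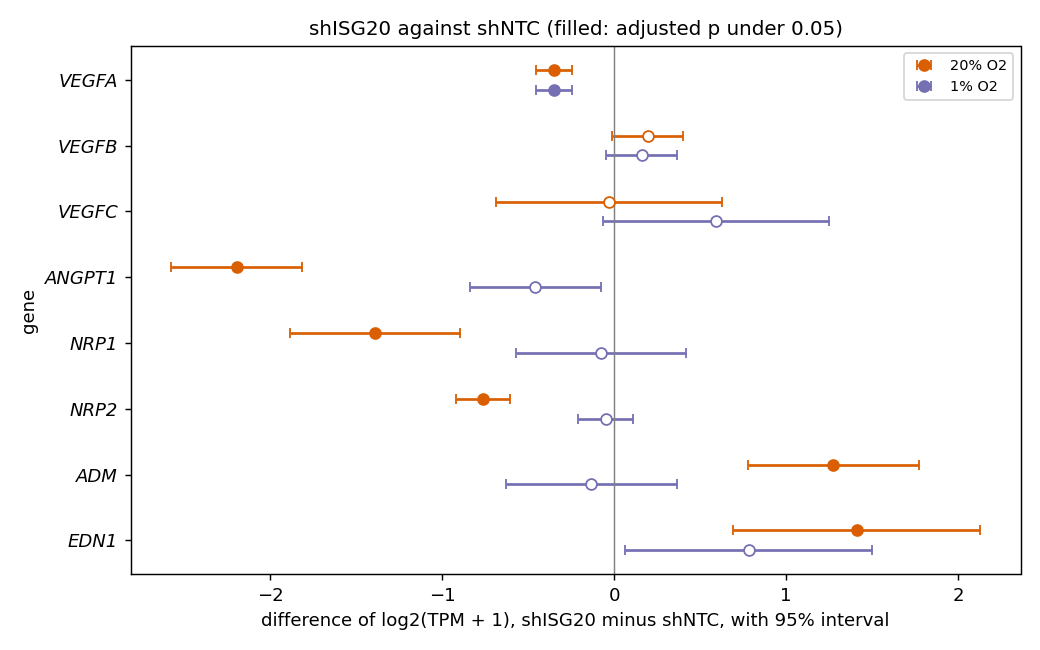
Difference of log2(TPM + 1) between shISG20 and shNTC cells for each tested gene, at 20% O2 (orange) and 1% O2 (purple). Bars are 95% intervals from limma and filled points passed at an adjusted p under 0.05. At 20% O2 ANGPT1, NRP1 and NRP2 lie to the left at -2.19, -1.39 and -0.76 and ADM and EDN1 to the right at 1.28 and 1.41, whereas at 1% O2 the filled point is VEGFA.

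Because 1% O2 lowered the median of all rows, hypoxia effects were also computed under other scalings. With median-of-ratios size factors the median row was at 0 in both hypoxia comparisons, and VEGFA was then 1.33 higher on the log2 scale in shNTC and 1.41 in shISG20 cells. VEGFB was 0.75 and 0.79 higher under that scaling. The directions of VEGFA, VEGFB, VEGFC, ANGPT1, NRP1 and ADM with 1% O2 did not turn in either subclone under any scaling.

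**Figure D4:**
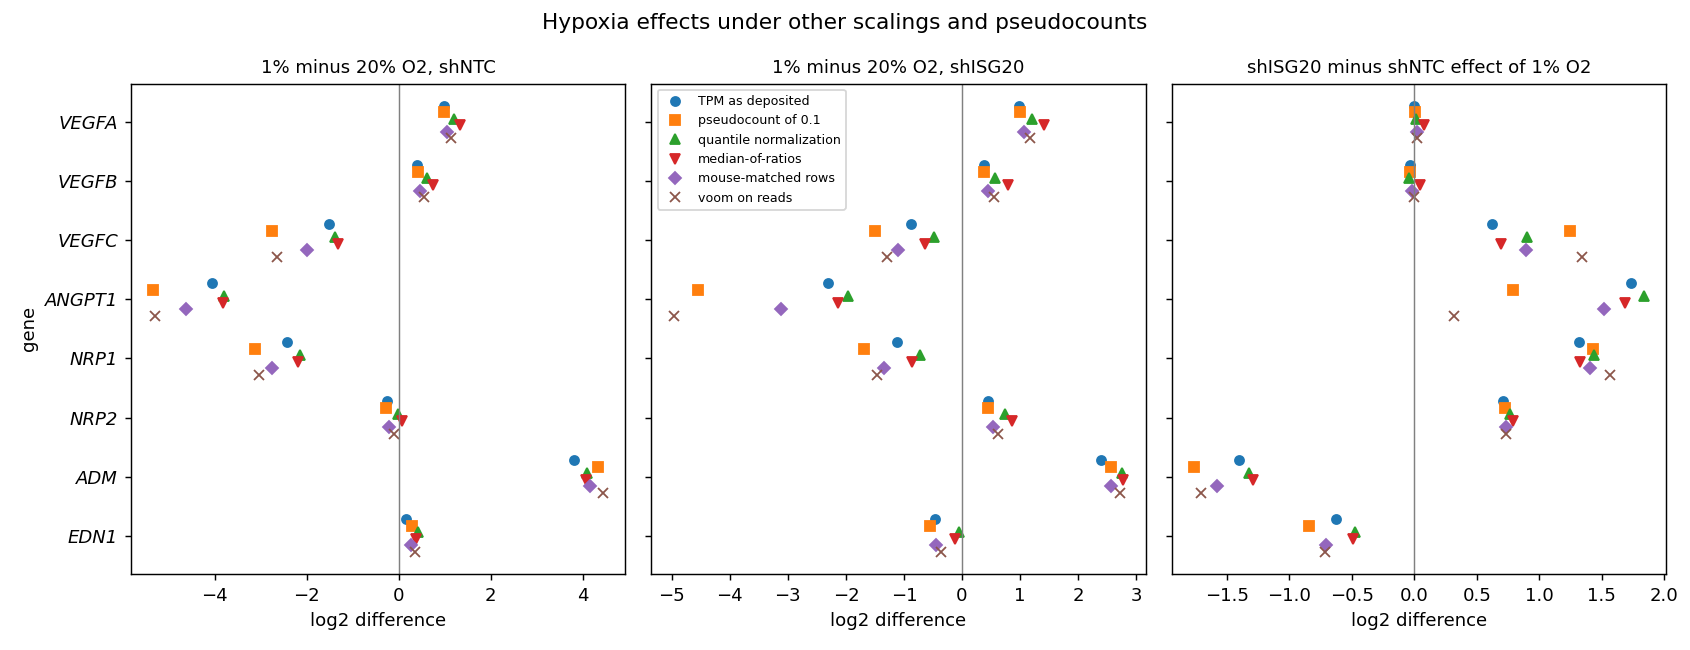
Hypoxia difference (log2) of each tested gene in shNTC cells (left), in shISG20 cells (middle) and the difference between those (right), under the deposited TPM and 5 other treatments of the values. Each symbol is a treatment. NRP2 in shNTC cells spreads around 0, from -0.27 to 0.075, and the ANGPT1 interaction spreads from 0.32 to 1.84.

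Sequence at the start of the mouse genes is shown for those with a hypoxia rise, VEGFA, VEGFB and ADM, and for NRP1 as a gene that fell, to set the letters of the hypoxia response element beside the responses. Windows ran from 250 bases before to 50 bases after the annotated start, taken from RefSeq on GRCm38.p6, and 8 of the 10 genes had an entry, in 10 windows. ANGPT1 and ANGPTL4 had no entry. Sequence outside the windows was not searched, so a window without a match does not speak for elements further away. The core letters searched were ACGTG and GCGTG on both strands, and they are in capitals where they occur (CACGT and CACGC are the same letters on the other strand). Of all 32851 windows 43.8% held at least 1 match, so a match is common and is a description of the letters, not of a bound site.
Adm, chr7:110627407-110627706, plus strand: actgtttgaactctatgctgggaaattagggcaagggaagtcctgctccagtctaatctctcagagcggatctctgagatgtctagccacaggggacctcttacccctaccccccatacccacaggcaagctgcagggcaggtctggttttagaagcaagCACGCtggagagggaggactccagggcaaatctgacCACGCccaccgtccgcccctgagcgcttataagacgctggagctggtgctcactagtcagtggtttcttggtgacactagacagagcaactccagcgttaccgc
Vegfa start 2, chr17:46032328-46032627, minus strand: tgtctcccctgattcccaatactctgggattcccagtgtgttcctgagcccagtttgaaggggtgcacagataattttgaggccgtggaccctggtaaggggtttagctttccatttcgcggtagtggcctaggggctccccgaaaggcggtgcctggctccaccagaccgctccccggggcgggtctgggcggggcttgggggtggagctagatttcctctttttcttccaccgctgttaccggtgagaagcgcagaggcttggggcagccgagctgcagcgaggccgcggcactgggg
Vegfb, chr19:6987602-6987901, minus strand: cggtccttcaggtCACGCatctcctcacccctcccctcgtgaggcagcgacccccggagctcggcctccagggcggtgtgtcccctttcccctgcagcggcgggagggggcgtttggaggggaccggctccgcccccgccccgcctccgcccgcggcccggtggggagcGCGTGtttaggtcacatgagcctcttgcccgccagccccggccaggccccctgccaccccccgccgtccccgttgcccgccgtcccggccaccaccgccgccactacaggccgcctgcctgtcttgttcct
Nrp1, chr8:128358823-128359122, plus strand: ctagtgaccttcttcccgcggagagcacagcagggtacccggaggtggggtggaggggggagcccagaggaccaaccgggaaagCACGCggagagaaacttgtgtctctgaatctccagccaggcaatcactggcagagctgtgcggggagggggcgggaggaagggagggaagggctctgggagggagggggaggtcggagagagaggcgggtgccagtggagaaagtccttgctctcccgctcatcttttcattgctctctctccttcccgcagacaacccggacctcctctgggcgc

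Adm held 2 matches, at -90 and -54 bases from the start, both on the other strand. The Vegfa window printed, at the outermost start of the gene, held none. The other annotated Vegfa start lies 7206 bases further into the gene, and its window, which covers 67 coding bases, held a pair of matches at -218 and -211 that both fall on coding bases (GENCODE vM21). Vegfb held 2 matches, at -237 and -81. The genes that fell were not without the letters: Nrp1 held 1 match at -166, while the Vegfc window held none. The Nrp1 start used lies 469 bases after the first start of the gene, so its window does not reach that first start. Nrp2 held matches at -207 and -160 and Edn1 held 1 at 22 bases after the start. In all, 7 of the 8 genes with an entry had a match in some window, Vegfa in the coding exon alone, against 46.7% of 27025 genes.

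**Figure D5:**
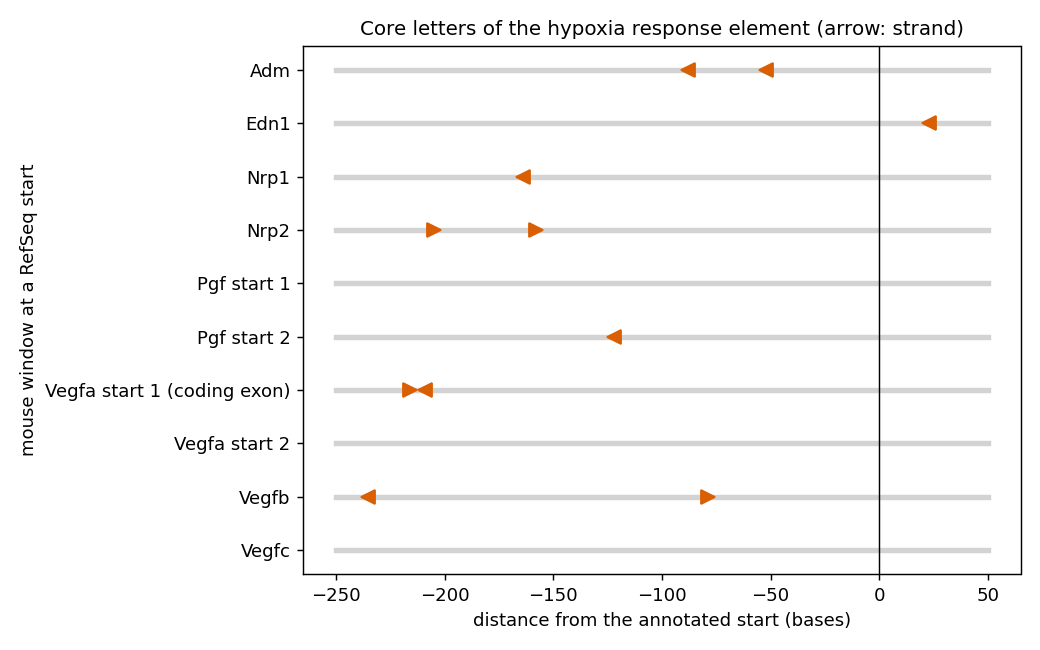
Position of the core letters of the hypoxia response element in the mouse windows, in bases from the annotated start (vertical line). Arrowheads give the strand and grey bars the window from 250 bases before to 50 after it. Adm, Nrp2 and Vegfb hold 2 matches each, as does Vegfa start 1, which lies in a coding exon, and Vegfc and Vegfa start 2 hold none.

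None of the 5 VEGF and angiopoietin receptor genes listed was tested, since none reached 1 TPM in 3 libraries. Of 13 semaphorins, plexins and other neuropilin partners 10 were tested. With knockdown at 20% O2, 3 fell and none rose: SEMA3A, a repulsive guidance cue that binds NRP1, from 181 to 110 TPM (log2 difference -0.71, limma, adjusted p = 0.000325), SEMA3F, which binds NRP2, from 48.3 to 24.8 TPM (-0.93, adjusted p = 0.00111), and PLXND1, a plexin receptor, from 16.7 to 12.0 TPM (-0.45, adjusted p = 0.00680). The median of the 10 was -0.23 against 0.015 over all rows, of which 5.05% rose and 6.55% fell. SEMA3A fell with 1% O2 in both subclones (-1.75 in shNTC and -1.17 in shISG20 cells, adjusted p = 2.51e-08 and 3.50e-07).

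SEMA3F, like NRP2, rose with 1% O2 in shISG20 cells (24.8 to 42.7 TPM, log2 difference 0.76, limma, adjusted p = 0.000382). In the neuropilin partner list 6 fell and none rose with 1% O2 in shNTC cells, and 5 fell and 2 rose in shISG20 cells, with medians of -0.41 and -0.43 against -0.28 and -0.35 over all rows. Of all rows 38.1% and 42.8% fell in these comparisons. The interaction passed for SEMA3F, SEMA3A and PLXND1, all positive, PLXND1 not under 12 of its alternatives. The list median was 0.33 against -0.087 over all rows, of which 6.93% passed, 2.62% positive and 4.31% negative. At 1% O2, where 13.9% of all rows passed, knockdown passed for SEMA3C alone (-0.75, adjusted p = 0.0447), and that call was lost under 13 alternatives.

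Among 22 other angiogenic ligands 10 were tested, and with 1% O2 7 rose and 2 fell in shNTC cells, and 5 rose and 2 fell in shISG20 cells, where 12.8% and 14.0% of all rows rose. PDGFA, a platelet-derived growth factor chain that acts on mesenchymal cells, rose from 26.0 to 55.7 TPM in shNTC cells (log2 difference 1.07, limma, adjusted p = 2.70e-07) and from 22.5 to 56.4 TPM in shISG20 cells (1.29, adjusted p = 4.97e-08). CCN1 and CCN2, matricellular proteins with angiogenic activity, were higher in shISG20 than in shNTC cells at both oxygen levels. From shNTC to shISG20 cells CCN1 went from 990 to 1954.5 TPM at 20% O2 (0.98, adjusted p = 1.15e-05), and from 1613 to 3344 TPM at 1% O2 (1.06, adjusted p = 1.08e-05). With knockdown 2 of the 10 rose and 2 fell at 20% O2, where 5.05% of all rows rose and 6.55% fell. At 1% O2, 2 rose and 3 fell, where 4.25% of all rows rose and 9.66% fell.

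Of 10 angiogenesis inhibitors 5 were tested. Knockdown lowered SPRY2, a feedback inhibitor of receptor tyrosine kinase signalling, at 20% O2 (log2 difference -0.40, limma, adjusted p = 0.00192) and at 1% O2 (-0.65, adjusted p = 0.000120). THBS2, encoding thrombospondin-2, fell with 1% O2 in shNTC cells from 6.36 to 2.42 TPM (-1.11, adjusted p = 0.000699). In this list 2 fell with knockdown at 20% O2, 1 rose and 2 fell at 1% O2, 2 fell with 1% O2 in shNTC cells and 1 rose in shISG20 cells. Of all rows 50.9% and 56.8% passed in the latter comparisons, and 11.6% and 13.9% with knockdown at 20% and 1% O2.

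Partners of ADM and EDN1 were sparse: 3 of 12 listed genes of the endothelin and adrenomedullin pathway were tested, and none passed with knockdown at either oxygen level (limma). PAM, the enzyme that amidates peptides such as adrenomedullin, rose with 1% O2 in shNTC cells from 17.1 to 26.5 TPM (log2 difference 0.61, adjusted p = 0.000385), and was 20.2 and 23.5 TPM in shISG20 cells (0.20, adjusted p = 0.106). ECE1, which cleaves the endothelin precursor, fell from 17.6 to 13.3 TPM with 1% O2 in shNTC cells (-0.38, adjusted p = 0.00518). That fall did not pass with quantile normalization (-0.046, adjusted p = 0.679) or with median-of-ratios size factors (-0.056, adjusted p = 0.617). In shISG20 cells ECE1 was 15.9 TPM at 20% O2 and 16.6 TPM at 1% O2, which did not pass. With knockdown at 1% O2 ECE1 missed the threshold (0.29, adjusted p = 0.0582). It passed there with quantile normalization, median-of-ratios size factors, mouse-matched rows or voom (0.32 to 0.38, adjusted p of 0.0126 to 0.0209). The ECE1 interaction passed under the same settings (adjusted p of 0.0220 to 0.0277) but not as deposited (adjusted p = 0.0708). RAMP3, a subunit of an adrenomedullin receptor, rose from 0.158 to 1.94 TPM in shNTC cells (1.29, adjusted p = 0.00976), and it too was tested only through the 1% O2 libraries. All 3 thus passed with 1% O2 in shNTC cells (50.9% of all rows), and 1, RAMP3, in shISG20 cells (0.91, adjusted p = 0.0436), a call lost under 10 alternatives.

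Of 16 genes listed for enzymes that make or degrade small vasoactive molecules or for their precursors 8 were tested. With 1% O2, 7 rose and 1 fell in shNTC cells and 6 rose in shISG20 cells, where 12.8% and 14.0% of all rows rose. NOS2 and ARG2 averaged under 1 TPM in both groups at 20% O2 and were tested through the 1% O2 libraries, where they are high, so the count is a description. NOS2, the inducible nitric oxide synthase, rose from 0.0565 to 21.1 TPM in shNTC cells (log2 difference 4.39, limma, adjusted p = 4.36e-09) and from 0.0952 to 9.89 TPM in shISG20 cells (3.30, adjusted p = 2.44e-08). HMOX1, which releases carbon monoxide from haem, rose in shNTC cells from 21.2 to 69.2 TPM (1.66, adjusted p = 1.16e-07). At 1% O2 the knockdown lowered HMOX1 (-1.03, adjusted p = 0.000115) and NOS2 (-1.03, adjusted p = 0.00222), the latter not with a pseudocount of 0.1 (-1.10, adjusted p = 0.154). At 20% O2 HMOX1 rose with knockdown (0.56, adjusted p = 0.00357), while DDAH2, PTGS1 and PTGS2 fell.

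Of 10 genes listed that process or hold the ligands 6 were tested. Among them SDC4, a cell surface proteoglycan, and PLAU, the urokinase gene, rose with 1% O2 in both subclones, and 3 fell in each, where 38.1% and 42.8% of all rows fell. HSPG2, the perlecan gene, fell in shNTC cells from 35.1 to 13.6 TPM (log2 difference -1.32, limma, adjusted p = 2.93e-06). With knockdown HSPG2 fell at 20% O2 (-0.48, adjusted p = 0.0199) and rose at 1% O2 (0.46, adjusted p = 0.0225). The call at 20% O2 was lost without shNTC replicate 2 or 3 or any shISG20 library there (adjusted p of 0.0526 to 0.0679). The call at 1% O2 was lost when only those groups entered the fit (adjusted p = 0.120) and without replicate 2 or 3 of either subclone there (adjusted p of 0.0530 to 0.0690).

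For scale, 16 of 17 tested reference HIF targets outside the set rose with 1% O2 in each subclone and none fell, where 12.8% and 14.0% of all rows rose. Their medians were 2.01 in shNTC and 1.88 in shISG20 cells. ADM at 3.80 and 2.40 lay above those medians and VEGFA at 0.99 below them. With knockdown at 1% O2, 6 of the 17 fell and 1 rose, where 9.66% of all rows fell and 4.25% rose. At 20% O2, 2 fell and 2 rose, where 6.55% of all rows fell and 5.05% rose. VEGFA was lower at both oxygen levels (log2 difference -0.35 at each). The interaction passed for 6 of the 17, 5 negative and 1 positive, where 4.31% of all rows were negative and 2.62% positive. That of VEGFA was -0.00018 and did not pass. The relation of VEGFA to these targets was not tested. Of the HIF subunits, HIF1A was lower with knockdown at 20% O2 (112 and 85.1 TPM, log2 difference -0.40, limma, adjusted p = 0.00384) and at 1% O2 (102 and 71.6 TPM, -0.51, adjusted p = 0.00100). ARNT, the other tested subunit, was higher with knockdown at 1% O2 (53.3 and 66.7 TPM, 0.31, limma, adjusted p = 0.0142) and did not pass at 20% O2. The ARNT call at 1% O2 was lost with only those groups fitted (adjusted p = 0.0783) and without shNTC replicate 2 there (adjusted p = 0.0540). ARNT rose with 1% O2 (0.29 in shNTC and 0.37 in shISG20 cells, adjusted p = 0.00488 and 0.000918).

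As a description of pattern, the rows most like a member over the 12 libraries were ranked by Pearson's r of log2(TPM + 1) among 5658 mouse-matched rows. The libraries share their groups, so high values are common and carry no test. KCTD11 (r = 0.995), DTNB (0.995) and PRDX5 (0.991) were most like VEGFA. KCTD11 averaged 5.15 and 25.1 TPM in shNTC cells at 20% and 1% O2, and 2.83 and 15.4 TPM in shISG20 cells. AKIRIN1 (0.992), GDPD2 (0.991) and FBXO31 (0.990) were most like ANGPT1. For NRP1 the closest were IGFBP4 (0.982), GDPD2 (0.979) and WNT10A (0.976). GDPD2 was thus near both, at 27.2 and 0.474 TPM in shNTC cells and 3.14 and 0 TPM in shISG20 cells.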

How the data were processed

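Gene-level RNA of 12 libraries (4 groups of 3) was analysed from a table that the authors deposited in TPM, with human Ensembl rows. Per the submitters' processing notes, the tools were FastQC, STAR and featureCounts and the build GRCh38. Their versions, the strand setting and how TPM were made are not given in the sources used here. Because human genes stand for mouse reads, diverged genes read low and no coordinates were taken from the table. Ratios of a row between libraries were whole-number ratios for 100% of the values above 0 (tolerance 0.01), which gave reads up to a common divisor per row. No library had a value above 0 for 40392 rows (66.6%).

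Tests used limma 3.58.1 in R 4.3.3 on log2(TPM + 1), with a variance trend, 1 coefficient per group and no covariate, on the 14389 rows at 1 TPM or more in 3 or more libraries. P-values were adjusted by Benjamini-Hochberg over all of these, with a threshold of 0.05. Intervals of read ratios are exact conditional binomial intervals at 95%. Tables, promoter matches and figures were made with Python 3.11.15, matplotlib 3.10.9, pandas 2.3.3 and numpy 2.4.6. The fit was tested on simulated data.

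Alternatives were a pseudocount of 0.1, no filter, quantile normalization, median-of-ratios size factors, mouse-matched rows, only the groups compared, no variance trend, voom on recovered reads, a replicate block and leaving out each library. Members, lists and tests were chosen with earlier results of these data known. All 10 members are named whatever their values. Of each list the rule takes, per comparison, up to 4 called rows with the smallest p, of which some are printed. Rows most like a member had the highest r among mouse-matched rows with at least 5 TPM on average.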

Additional observations from a re-analysis of the deposited data

Results flagged for a closer look

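The following genes had hypoxia effects that differed between the subclones by the limma interaction test (adjusted p under 0.05); values are the log2(TPM + 1) effect of 1% O2 in shISG20 cells minus that in shNTC cells. Among the angiogenic and vasoactive factors the difference was 1.74 for ANGPT1, 1.32 for NRP1 and 0.71 for NRP2, and -1.41 for ADM. The ANGPT1 difference did not pass with a pseudocount of 0.1 or with voom, and those of NRP1 and ADM did not pass in 13 and 8 of 20 alternatives. ISG20 itself gave -1.07, which did not pass with a pseudocount of 0.1 (-0.66, adjusted p = 0.422) or with voom (-0.47, adjusted p = 0.682), nor without shNTC replicate 1 (adjusted p = 0.0511) or 2 (adjusted p = 0.0530) at 1% O2.

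Of the neuropilin partners, SEMA3F gave 1.07, SEMA3A 0.58 and PLXND1 0.47. Of the vasoactive enzymes, HMOX1 gave -1.59, DDAH2 1.20, PTGS2 0.48 and NOS2 -1.08. The NOS2 difference did not pass with a pseudocount of 0.1 (-1.47, adjusted p = 0.220) or with voom (-1.52, adjusted p = 0.281).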

How the results depend on the processing

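Of the values of single genes under all alternatives, 2893 stayed called, 653 stayed uncalled (41 of them with the sign turned), 190 lost a call, 29 gained one and 4 turned direction with a call on one side: NRP2 with 1% O2 in shNTC cells (0.075 with median-of-ratios size factors), FURIN with 1% O2 in shISG20 cells (0.049 with the same), and HIF1A with 1% O2 in shISG20 cells (0.035 with quantile normalization and 0.17 with median-of-ratios). Rows called with knockdown at 1% O2 were 2001, and 957 with only those groups fitted; rows called for the interaction were 997, and 1835 with voom. Of the 8 tested genes, knockdown at 1% O2 passed for 1, for 2 with a pseudocount of 0.1 or mouse-matched rows and for 3 with voom. The interaction passed for 4, and for 2 with a pseudocount of 0.1. Leaving out 1 library at a time gave 1087 to 1727 rows for knockdown at 20% O2, 1155 to 1889 at 1% O2, 6617 to 7317 for 1% O2 in shNTC cells, 7590 to 8179 in shISG20 cells and 595 to 1043 for the interaction. Counts of tested genes of the set then ran from 5 to 6, 1 to 2, 7 to 7, 6 to 7 and 2 to 4 in that order. The lowest counts came without shISG20 replicate 2 at 20% O2 (1087 with knockdown at 20% O2, 595 for the interaction) and without shNTC replicate 2 at 1% O2 (1155 with knockdown at 1% O2); knockdown at 1% O2 gave 1319 without shISG20 replicate 3 at 1% O2, and the interaction 655, 635 and 632 without shNTC replicate 1 at 20% O2, shNTC replicate 2 at 1% O2 and shISG20 replicate 3 at 20% O2. With median-of-ratios size factors the split of calls with 1% O2 was 3311 higher and 3210 lower in shNTC cells, against 1847 and 5479, and 3781 and 3828 in shISG20 cells, against 2021 and 6152. With quantile normalization it was 2913 and 3586, and 3338 and 3950. With median-of-ratios the knockdown at 1% O2 split 1016 and 1087, against 611 and 1390, and the interaction 590 and 456, against 377 and 620. Same-numbered replicates did not pair (r of their deviations -0.042 to 0.015 in 18 pairs; 1 of 12 libraries correlated best with its own number), and with a replicate block the calls were 1438, 1748, 7129, 8087 and 726, with 2 of the 8 genes passing the interaction (ADM and NRP1 did not, limma, adjusted p = 0.0510 and 0.0668). The interaction was not run with only the groups compared, since it needs all 4. Depth limits VEGFC, EDN1, ANGPTL4 and, at 1% O2, ANGPT1, which rest on few reads; the causes of these changes were not tested.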

Other observations

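The markers of other cell types gave further values. Pericyte and smooth muscle markers summed to 148 to 237 TPM per library, mostly ACTA2, while RGS5 was at 0. PDGFRB, a receptor of pericytes and fibroblasts, fell with 1% O2 from 7.60 to 1.11 TPM in shNTC cells (log2 difference -2.04, limma, adjusted p = 1.31e-05) and from 6.25 to 0.802 TPM in shISG20 cells (-2.03, adjusted p = 1.08e-05). Of the leucocyte markers PTPRC, CD68, LYZ, CD3E and CD79A were at 0, and CSF1R rose with 1% O2 from 0.0449 to 2.56 TPM in shNTC cells (1.75, adjusted p = 0.000139) and from 0.0499 to 1.84 TPM in shISG20 cells (1.40, adjusted p = 0.000541). CSF1R was tested only through the 1% O2 libraries, where it is high, so its rise is a description.

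The summed carcinoma line markers, a list of epithelial and mesenchymal genes, were 1758 to 2061 TPM per library at 20% O2 and 7021 to 8332 TPM at 1% O2. These sums were mostly VIM, which averaged 1979 and 6851 TPM in shNTC cells at 20% and 1% O2. In shISG20 cells VIM averaged 1827 and 8046 TPM. KRT19, a keratin of epithelial cells, rose with 1% O2 from 3.31 to 60.0 TPM in shNTC cells (3.81, adjusted p = 2.62e-08) and from 6.39 to 76.1 TPM in shISG20 cells (3.42, adjusted p = 4.04e-08). Their part in the results on angiogenic factors was not tested.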
